A study of Mus musculus with 4 samples.

Results

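Very long protein-coding genes that are expressed in mouse embryonic stem cells were followed in cells without B-type lamins. A gene was included where its span in the count table was at least 300 kb and its mean over all 4 libraries was at least 1 CPM (counts scaled to a library total of 1000000), and 271 of the 37991 genes in the table met this rule. Of 524 protein-coding genes of at least 300 kb, 273 reached 1 CPM, and 2 of those, Stag1 and Zfp407, fell under exclusions made for other gene groups. The genes were chosen by length and by mean level over all 4 libraries. The rule does not use the difference between genotypes, but it was set with earlier results of these data known. At the length threshold, Pam spanned 300532 bp and was included, and Jazf1 spanned 299834 bp and was not. At the expression threshold, Cntnap2 averaged 1.01 CPM and was included, and Dgki averaged 0.997 CPM and was not.

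The study compared RNA from embryonic stem cells that lack both B-type lamins (dKO, 2 libraries) with RNA from wild-type cells (wt, 2 libraries). All 4 libraries carry the strain label ZHBTc4, an embryonic stem cell line whose endogenous Pou5f1 genes are inactivated and which depends on a tetracycline-repressible Pou5f1 transgene. The design text calls the second library of each genotype a biological replicate, but the sources used here do not say how the null cells were made or whether a genotype is more than 1 clone, so p-values measure the spread between these samples.

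A very long gene is mostly intron, so an RNA polymerase spends far longer on it than on a typical gene, and its transcription is known to depend on topoisomerases and elongation factors. Many such genes encode adhesion receptors, channels and scaffolds used in the nervous system, and they tend to lie in gene-poor, AT-rich stretches of the genome, which in many cell types contact the nuclear lamina. B-type lamins, encoded by Lmnb1 and Lmnb2, are permanently membrane-attached filament proteins of that lamina.

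The genotype labels were checked on the targeted genes. Lmnb1 had 69 and 101 counts in the dKO libraries, against 8538 and 8321 counts in the wt libraries, and its level was 5.13 ± 1.26 CPM in dKO and 607 ± 85.2 CPM in wt (SD, n = 2 each). Lmnb2 had 41 and 55 counts in dKO libraries, against 1343 and 1787 counts in wt libraries. Both fell in dKO, by 6.88 and 5.26 on the log2 scale (SE 0.24 and 0.19, adjusted p = 0.00094 for each by edgeR's quasi-likelihood test). The libraries held 16697970 and 16584014 counts in dKO and 12899964 and 14941952 counts in wt. The summed level of 10 pluripotency markers was 7062 and 7246 CPM in dKO and 6272 and 6105 CPM in wt, above the sums for primitive endoderm, trophoblast, neuroectoderm and fibroblast markers, which lay between 126 and 717 CPM in every library. Within the pluripotency list, 5 genes had positive and 5 had negative differences, with a median log2 difference of 0.02. The largest was positive, in Zfp42, at 1449 and 1435 CPM in dKO libraries, against 666 and 613 CPM in wt libraries. Its log2 difference was 1.17 (SE 0.12, adjusted p = 0.0886 by edgeR). Of the markers found in the table, 0 were at 0 in all 4 libraries. Trophoblast markers summed to 271 and 536 CPM in dKO and 426 and 717 CPM in wt, and fibroblast markers to 126 and 223 CPM in dKO and 166 and 231 CPM in wt, so both sums were lower in replicate 1 of each genotype and lower in dKO than in wt within each replicate number. Primitive endoderm sums had the same pattern, at 438 and 589 CPM in dKO and 449 and 665 CPM in wt. Of the primitive endoderm genes, 5 were positive and 5 negative. Neuroectoderm sums went the other way, at 420 and 289 CPM in dKO and 379 and 256 CPM in wt. Of the tested markers, 8 of 9 for trophoblast and 6 of 6 for fibroblasts had negative differences, with medians of -0.32 and -0.65. Over all genes tested, 49.7% of differences were positive. Levels of the fibroblast markers were low, with a median mean level of 1.24 CPM over the 10 genes, of which 6 were tested. Libraries with the same replicate number stood closer to each other than libraries of the same genotype did (chi-square per degree of freedom of the counts 13.8 for the replicate 1 pair and 16.6 for the replicate 2 pair, against 21.6 within dKO and 21.6 within wt). The part that these differences play in the values of the long genes was not tested. In RNA from a whole culture, fewer cells of a kind and less RNA per cell cannot be told apart.

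Promoter sequences of 4 of the genes are shown because these genes carry the contrasts described below: among long genes of at least 5 CPM whose genotypes do not overlap, Mid1 and Tenm4 have the largest positive differences and Pid1 the largest negative one, and Gpc3 has the highest level per length of exon. Each line gives the 250 bases upstream of the most upstream start that RefSeq lists for the gene on build GRCm38.p6, on the gene's own strand, and capitals mark CpG dinucleotides. The windows are chrX:169684949-169685198 on the plus strand for Mid1, chr7:96170994-96171243 on the plus strand for Tenm4, chr1:84284646-84284895 on the minus strand for Pid1 and chrX:52613975-52614224 on the minus strand for Gpc3.
Mid1: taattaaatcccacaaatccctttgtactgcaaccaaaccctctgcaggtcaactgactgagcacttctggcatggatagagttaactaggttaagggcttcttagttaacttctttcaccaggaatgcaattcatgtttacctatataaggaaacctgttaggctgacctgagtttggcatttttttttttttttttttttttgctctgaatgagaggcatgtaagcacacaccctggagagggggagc
Tenm4: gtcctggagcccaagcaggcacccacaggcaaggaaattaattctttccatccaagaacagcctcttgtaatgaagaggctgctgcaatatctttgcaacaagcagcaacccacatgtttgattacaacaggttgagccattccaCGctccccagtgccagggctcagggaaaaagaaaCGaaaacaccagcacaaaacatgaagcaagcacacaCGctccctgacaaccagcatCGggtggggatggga
Pid1: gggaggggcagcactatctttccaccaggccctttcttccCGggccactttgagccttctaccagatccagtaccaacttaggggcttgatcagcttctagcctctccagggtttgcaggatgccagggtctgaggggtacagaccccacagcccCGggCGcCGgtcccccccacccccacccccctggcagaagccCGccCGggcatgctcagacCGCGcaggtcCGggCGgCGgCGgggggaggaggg
Gpc3: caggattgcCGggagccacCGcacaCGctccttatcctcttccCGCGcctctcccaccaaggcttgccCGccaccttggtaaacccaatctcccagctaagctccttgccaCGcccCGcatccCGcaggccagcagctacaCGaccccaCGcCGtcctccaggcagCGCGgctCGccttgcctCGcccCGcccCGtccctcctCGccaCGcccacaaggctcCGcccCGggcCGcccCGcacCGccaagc

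The windows ran from 0 CpG dinucleotides at 40.8% GC for Mid1 and 4 at 50.8% GC for Tenm4 to 12 at 68.0% GC for Pid1 and 25 at 71.6% GC for Gpc3. Mid1 has 3 listed promoter windows and Tenm4 has 2, so the lines printed for them are 1 start among several. RefSeq promoter entries matched 208 of the 271 genes, with 315 windows of 300 bases. More than 1 window was listed for 33.7% of the matched long genes, against 20.7% of other protein-coding genes of at least 1 CPM. The median window of the long genes held 17 CpG dinucleotides at 60.3% GC, against 21 at 61.0% GC for the other expressed genes. The motif TATAAA, read on both strands, was in 8.57% of the long genes' windows, 6.88% of those of other expressed genes and 13.6% of all promoters. CCAAT was in 34.6%, 37.8% and 37.4% of these 3 sets of windows, in the same order, and GGGCGG was in 53.7%, 63.7% and 35.7%. Matches of different motifs can overlap and were counted separately, and a match is a description only.

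The long genes were large in span and moderate in transcript. Their spans ran from 300532 to 3009068 bp with a median of 412565 bp, against a median of 23699 bp for other protein-coding genes of at least 1 CPM. Their longest annotated transcript had a median of 6409 bp, against 3433 bp. The transcript with the most exons had a median of 22 exons, against 10, and exons covered a median of 2.30% of the span, against 19.5%. A median of 3 other protein-coding genes started within 500 kb of a long gene's own start coordinate, against 14. Much of that window is the long gene's own body, so these counts are not like for like. Their mean levels ran from 1.01 to 950 CPM, with a median of 11.3 CPM against 28.5 CPM for the other expressed genes. The longest span belongs to Fgfr2 at 3009068 bp, followed by Ptprd at 2270723 bp and Dmd at 2257271 bp. Span overstates transcript extent in some cases: the longest coding transcript of Fgfr2 in the GENCODE M21 annotation runs over 102482 bp, and for 241 of the 271 genes the longest coding transcript itself covers at least 300 kb. Arfip1 spanned 1391423 bp in the table and 86532 bp in GENCODE M21.

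No long gene passed the test for a difference between genotypes in the fit on genotype alone. All 271 were tested in the fit over 14027 genes by edgeR's quasi-likelihood test with Benjamini-Hochberg adjustment, and 0 had an adjusted p under 0.05 in either direction, against 12 of all genes tested (0.0855%). Adjusted p-values of the long genes ran from 0.205 for Tenm4 upward. At an unadjusted p under 0.05, 21 of the 271 were higher in dKO (2.87% of all genes tested) and 4 were lower in dKO (2.71% of all genes tested). The count of 0 depends on the fit. With a replicate term, long genes were called in both directions, and those counts are given in the closing section on processing. DESeq2 on unfiltered genes called 3 long genes, Mid1, Tenm4 and Sbf2, all higher in dKO, against 0.639% of all genes it could call. The 95% interval of the log2 difference lay within 1 of 0 for 136 of the long genes, or 50.2%, against 65.5% of all genes tested.

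As a list, the long genes were slightly higher in dKO. The median log2 difference, dKO minus wt, was 0.14 with quartiles of -0.09 and 0.38, against 0.00 over all genes tested, whose quartiles were -0.17 and 0.16. The difference was positive for 180 long genes and negative for 91, so 66.4% were positive, against 49.7% of all genes tested. Both dKO values lay above both wt values for 76 long genes, or 28.0% (17.2% of all genes tested), and below both for 27, or 9.96% (16.4% of all genes tested). In the other 168 the genotypes overlapped. The list carries no test of its own.

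The list's difference was not carried evenly by the 4 libraries. The long genes took 0.909% and 0.994% of counts in dKO libraries, against 0.786% and 0.916% in wt libraries, so dKO replicate 1 and wt replicate 2 were nearly level. Measured as the median log2 deviation of each gene from its mean over the 4 libraries, dKO stood at -0.0030 in replicate 1 and 0.13 in replicate 2, and wt stood at -0.09 in replicate 1 and -0.02 in replicate 2. Replicate 2 of dKO held the highest value for 110 long genes and the lowest for 30, and replicate 1 of wt held the highest for 41 and the lowest for 97. The median was 0.06 without dKO replicate 2 and 0.10 without wt replicate 1, and positive differences then numbered 150 and 163. Without dKO replicate 1 it was 0.17, and without wt replicate 2 it was 0.18. Taken within replicate numbers, the median difference was 0.08 between the first libraries and 0.14 between the second. Within genotype, replicate 2 exceeded replicate 1 by a median of 0.13 in dKO and 0.07 in wt. Both replicate 2 values lay above both replicate 1 values for 93 of the 271 long genes, against 3667 of the 14027 genes tested (26.1%). They lay below both for 48 of the long genes, against 3674 of all genes tested (26.2%). By genotype, the counts among the long genes were 76 with dKO above wt and 27 with dKO below wt.

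The difference followed gene length across the whole expressed set. Among protein-coding genes of at least 1 CPM, the median log2 difference was -0.07 for 2897 genes under 10 kb, -0.02 for 4116 genes of 10 to 30 kb, 0.04 for 3659 genes of 30 to 100 kb, 0.09 for 1363 genes of 100 to 300 kb and 0.14 for 273 genes of at least 300 kb, the 2 excluded genes among them. The share of positive differences was 36.5%, 45.4%, 57.7%, 64.4% and 66.3% in these classes. Within the long genes, the median was 0.07 for 127 genes of 300 to 400 kb, 0.22 for 98 genes of 400 to 600 kb, 0.21 for 32 genes of 600 kb to 1 Mb and 0.35 for the 14 genes of at least 1 Mb. That last group has fewer than 20 genes, 10 of them positive. Without dKO replicate 2 the 3 longest classes of the expressed set lay at 0.05, 0.05 and 0.06, and without wt replicate 1 they lay at 0.03, 0.04 and 0.10. Across the 271 genes, which share the same 4 libraries, Spearman's rho between span and log2 difference was 0.18, a description across genes that are not independent replicates.

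**Figure D1:**
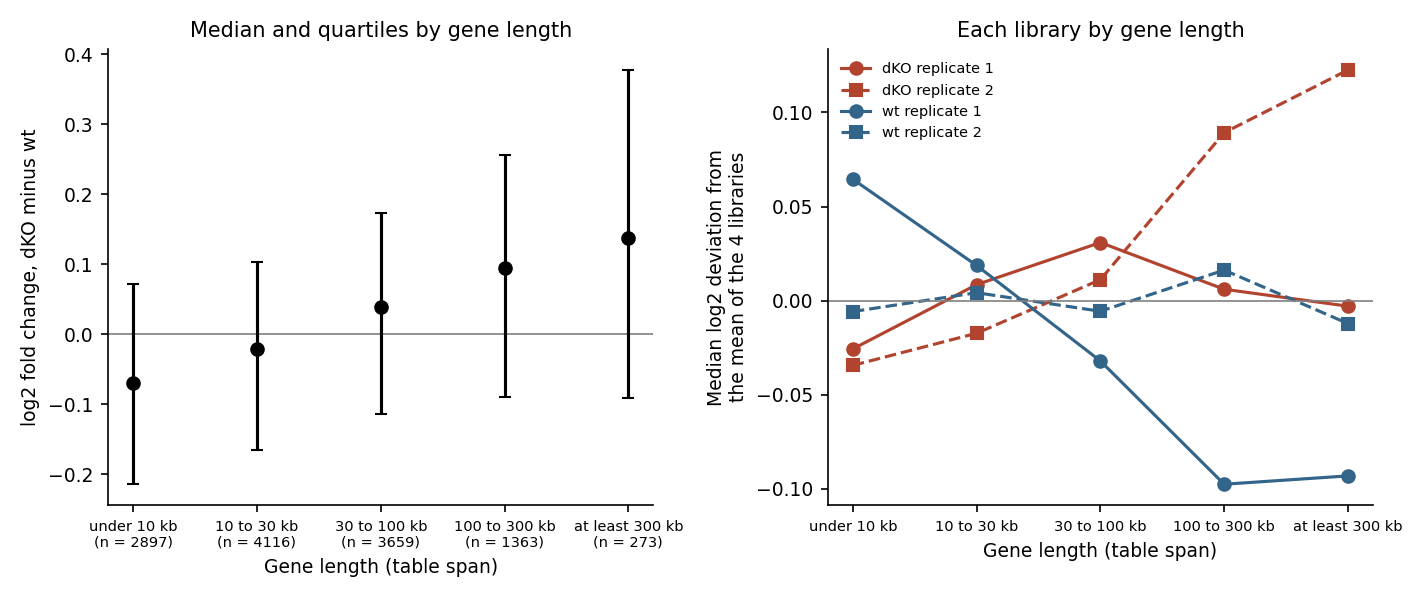
Left, the median log2 fold change (dKO minus wt, points) with quartiles (bars) of protein-coding genes of at least 1 CPM in 5 classes of gene length, from -0.07 under 10 kb to 0.14 at 300 kb or more. Right, the median log2 deviation of each library from the mean of the 4 libraries in the same classes, where dKO replicate 2 is highest and wt replicate 1 lowest among the longest genes.

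Span, transcript length and base composition go together, and the difference varied with each. With the long genes cut into 3 equal parts by transcript length, the median was 0.04 up to 5019 bp, 0.23 from there to 7857 bp and 0.18 above that. Other protein-coding genes in the same ranges of transcript length had medians of -0.03, 0.07 and 0.15, and in the range of the longest transcripts the long genes and the others lay close together. By GC content of the transcript, the 3 parts of the long genes lay at 0.13, 0.22 and 0.06 from low to high GC, against 0.05, 0.03 and -0.05 for the others. The long genes were also cut by the number of protein-coding genes that start within 500 kb of the gene's own start. On that measure they lay at 0.11, 0.12 and 0.18 from sparse to dense, against 0.04, 0.04 and -0.01. By mean CPM they lay at 0.12, 0.10 and 0.19 from low to high, against -0.10, -0.03 and 0.02. Across all 12308 expressed protein-coding genes, rho with the log2 difference was 0.21 for span, 0.23 for transcript length and -0.21 for transcript GC. Which of these properties the difference goes with was not tested.

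Level and chromosome divided the long genes further. The 83 genes of 20 to 100 CPM had a median of 0.16, with 64 positive differences, and 35 of them, or 42.2%, had both dKO values above both wt values and 4, or 4.82%, had both below. Among 4665 other protein-coding genes of that level these shares were 18.3% and 15.7%. Of the 16 genes of at least 100 CPM, 8 had both dKO values above both wt values and 1 had both below. The 97 genes of 1 to 5 CPM had a median of 0.14 with wider quartiles, -0.21 and 0.57. Both dKO values lay above in 19.6% of these 97 and below in 14.4%. The 75 genes of 5 to 20 CPM had a median of 0.07, with shares of 18.7% above and 10.7% below. Over all genes tested these shares were 17.2% and 16.4%, so below 20 CPM the share above was close to that of all genes. The 14 long genes on the X chromosome had a median of 0.30, with 11 positive, and the 257 on autosomes had a median of 0.13. Other X-linked protein-coding genes, 426 in number, had a median of 0.01. Long genes below 1 CPM numbered 247, of which 31 passed the count filter, with a median of 0.28.

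**Figure D2:**
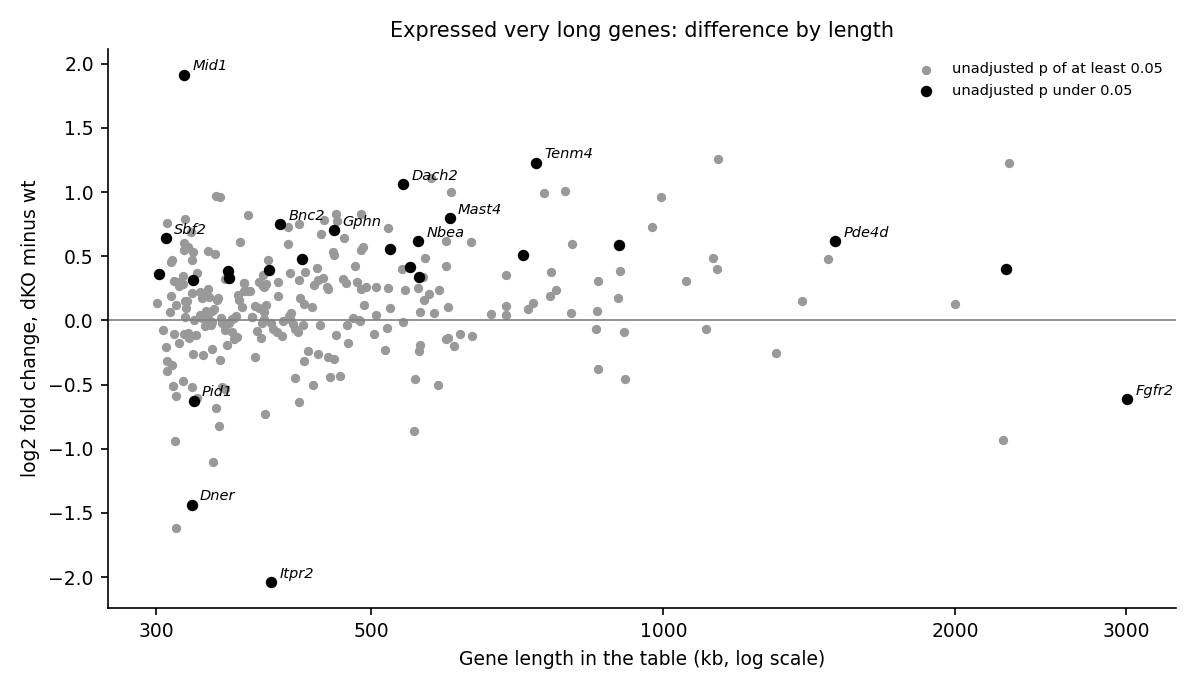
Each point is 1 of the 271 very long genes, with its span in kb (log axis) and its log2 fold change, dKO minus wt. Black points have an unadjusted p under 0.05, 21 above zero and 4 below, and the names of those beyond 0.6 in size are printed.

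Among long genes of at least 5 CPM whose genotypes do not overlap, the largest differences were positive and belonged to genes of unlike function. Among genes of that level whose genotypes overlapped, Hydin, a ciliary protein, had the largest negative difference, -1.10 (SE 0.59). Ryr2, a calcium release channel, at -0.86 (SE 0.58) and Hecw2, a ubiquitin ligase, at -0.73 (SE 0.45) followed. Hydin, Ryr2 and Hecw2 were named after their values were seen. With a replicate term they were called, as given in the closing section on processing. Mid1 encodes a microtubule-binding ubiquitin ligase that acts on protein phosphatase 2A and, in the house mouse, crosses the pseudoautosomal boundary of the X chromosome. Mid1 (X chromosome, 166123129 to 166443668 in the table's coordinates) had 42.3 and 37.5 CPM in dKO libraries, against 7.19 and 13.9 CPM in wt libraries. Both dKO values stood well above both wt values, and the wt libraries differed from each other more than the dKO libraries did. The log2 difference was 1.91 with a standard error of 0.32 and an adjusted p of 0.292 in edgeR's test. Of the exon bases of Mid1, 17.9% are shared with other annotated genes, and 3 genes annotated on the opposite strand inside it also had counts. The antisense gene Gm15247 had 13 and 13 counts in dKO libraries, against 1 and 0 counts in wt libraries, G530011O06Rik had 7 and 6 against 1 and 1, and Gm15726 had 4 and 0 against 0 and 0. Whether the counting used strand is not given in the sources used here, so reads of Mid1 and of these genes cannot be told apart with certainty.

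Tenm4 encodes a teneurin, a large transmembrane protein that binds partners on neighbouring cells. It spans 103319754 to 104059603 on chromosome 7 in the table's coordinates and had 60.0 and 71.6 CPM in dKO libraries, against 25.9 and 30.2 CPM in wt libraries. The genotypes were far apart relative to the spread inside either. Its log2 difference was 1.23 (SE 0.16, 95% interval 0.83 to 1.63), and its adjusted p of 0.205 was the smallest among the 271 genes. Mid1 and Tenm4 were past an adjusted p of 0.05 in some other fits. For Mid1 and Tenm4 in turn, edgeR without the low-count filter gave 0.0471 and 0.00139, and DESeq2 on unfiltered genes gave 4.3e-06 and 1.4e-05. Both were also called with a replicate term (closing section on processing). Leaving out wt replicate 2 put their log2 differences at 2.47 and 1.35.

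The other genes with large positive differences encode a scaffold, a kinase, a transcription factor and a receptor anchor. Mast4, a microtubule-associated serine/threonine kinase, had 28.1 and 24.3 CPM in dKO libraries, against 16.3 and 13.8 CPM in wt libraries (log2 difference 0.80, SE 0.18, adjusted p = 0.550 by edgeR). Bnc2, a zinc-finger protein of the basonuclin family, had 42.3 and 33.6 CPM in dKO libraries, against 22.4 and 22.9 CPM in wt libraries (0.75, SE 0.17). Gphn encodes gephyrin, which anchors inhibitory neurotransmitter receptors and also makes the molybdenum cofactor, and it had 11.7 and 17.1 CPM in dKO libraries, against 9.54 and 8.15 CPM in wt libraries (0.70, SE 0.26). Ank2, which encodes the membrane adaptor ankyrin-B, had 82.3 and 63.6 CPM in dKO libraries, against 61.3 and 20.9 CPM in wt libraries. For Ank2 the 2 wt libraries lay further apart than the genotype means did, and the log2 difference of 0.83 had a standard error of 0.48. Without wt replicate 1 the difference in Ank2 was 1.80, with an adjusted p of 0.0490 in edgeR's test.

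Fewer long genes were lower in dKO, and among those of at least 5 CPM with non-overlapping genotypes their differences were smaller. Pid1, which encodes a phosphotyrosine-binding adaptor of the LDL-receptor-related protein LRP1, lies at 84032868 to 84360755 on chromosome 1 in the table's coordinates. It had 13.9 and 13.8 CPM in dKO libraries, against 22.4 and 20.4 CPM in wt libraries, and the replicates of each genotype were close together (log2 difference -0.62, SE 0.17, adjusted p = 0.712 by edgeR). Its neighbour Dner, a Notch-ligand-like transmembrane protein at 84366416 to 84692796 on the same chromosome, had 2.52 and 2.27 CPM in dKO libraries, against 4.30 and 8.61 CPM in wt libraries (-1.43, SE 0.42). Dner was chosen for mention after its values were seen. Fgfr2, a receptor for fibroblast growth factors, had 47.5 and 37.3 CPM in dKO libraries, against 58.8 and 70.7 CPM in wt libraries (-0.61, SE 0.18, adjusted p = 0.720 by edgeR). Dner and Fgfr2, like Pid1, had both dKO values below both wt values. The table's span of Fgfr2 holds 40 other genes, 17 of them at 1 CPM or more.

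The remaining genes of this group had log2 differences between -0.51 and -0.44. Ryr3, an intracellular calcium release channel, had 7.92 and 9.84 CPM in dKO libraries, against 11.7 and 13.4 CPM in wt libraries. Wwox, an oxidoreductase with WW domains whose human gene covers a common fragile site, had 14.7 and 11.9 CPM in dKO libraries, against 18.5 and 18.1 CPM in wt libraries. Fam110b had 13.0 and 14.0 CPM in dKO libraries, against 15.6 and 20.8 CPM in wt libraries. Cep112, a centrosomal coiled-coil protein, had 3.93 and 5.79 CPM in dKO libraries, against 7.58 and 6.25 CPM in wt libraries. In all 4 genes the genotypes did not overlap, but the nearest dKO and wt libraries of Cep112 and Fam110b were closer than the 2 wt libraries were. The largest negative difference of all was that of Itpr2, an inositol trisphosphate receptor chosen for mention after its values were seen, with 0.798 and 1.07 CPM in dKO libraries, against 4.22 and 3.55 CPM in wt libraries. That rests on 13 and 18 counts in dKO libraries, against 54 and 54 counts in wt libraries (log2 difference -2.04, SE 0.38, adjusted p = 0.363 by edgeR).

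**Figure D3:**
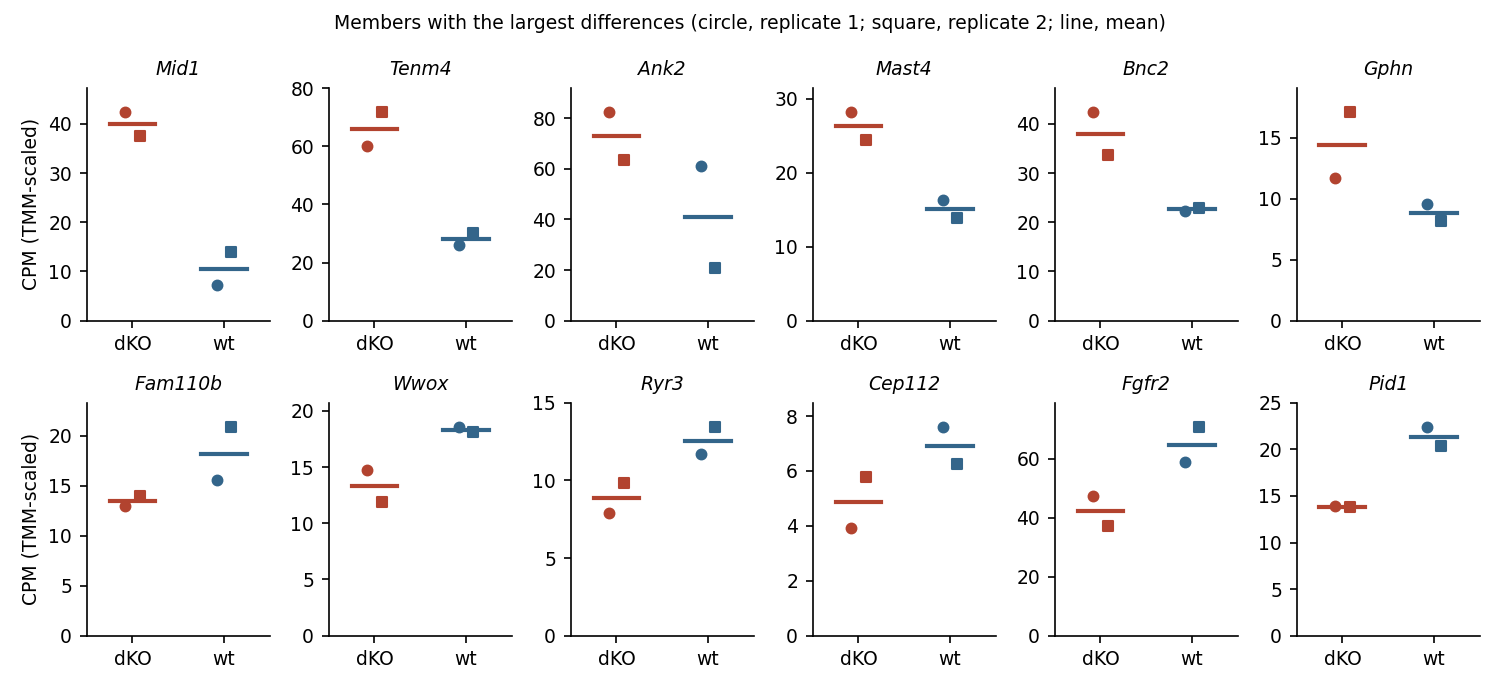
TMM-scaled CPM in each library (circles, replicate 1; squares, replicate 2) and the genotype mean (line), dKO left of wt, for the 6 largest positive (top) and 6 largest negative (bottom) log2 differences among very long genes of at least 5 CPM whose genotypes do not overlap. In Mid1 and Tenm4 the genotypes are far apart, and in Ank2 the 2 wt libraries, at 61.3 and 20.9 CPM, are further apart than the means.

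By role, adhesion and guidance receptors had the highest median difference over all 4 libraries. Of 19 such genes, 0 passed the test, 17 had positive and 2 had negative differences, and the median was 0.53. The genotypes did not overlap in 7, or 36.8%, all of them higher in dKO (17.2% of all genes tested and 28.0% of the long genes). The median of the mean levels in this list was 3.93 CPM. The summed level of the list was 506 and 595 CPM in dKO libraries, against 350 and 441 CPM in wt libraries. Ptprk, a receptor-type tyrosine phosphatase with homophilic binding, had 186 and 190 CPM in dKO libraries, against 130 and 126 CPM in wt libraries. The genotypes of Ptprk stood apart with narrow spread, at a log2 difference of 0.56 (SE 0.11, adjusted p = 0.396 by edgeR). Ptprg, a related phosphatase, had 109 and 112 CPM in dKO libraries, against 86.4 and 117 CPM in wt libraries, and its genotypes overlapped. Ptprd, a synaptic adhesion phosphatase and the second longest gene, was near the expression threshold at 1.72 and 2.39 CPM in dKO libraries, against 1.17 and 0.592 CPM in wt libraries (1.23, SE 0.50). The other large positive differences, 0.78 for Tenm3 and 0.73 for Sdk1, were in a second teneurin and in the synaptic adhesion protein sidekick-1. The negative ones were -0.28 for Sema5a, a semaphorin, and -0.93 for Cntnap2, a neurexin-family protein with 6 and 17 counts in dKO libraries, against 11 and 27 counts in wt libraries. Without dKO replicate 2 the list's median was 0.23, and without wt replicate 1 it was 0.36, below the 0.37 of the scaffolds described next.

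Junction and membrane scaffolds came next. Of 22 genes, 0 passed the test, 17 had positive and 5 had negative differences, with a median of 0.33 (0.22 without dKO replicate 2 and 0.19 without wt replicate 2). Dmd encodes dystrophin, which links actin to the membrane, and had 83.4 and 107 CPM in dKO libraries, against 73.6 and 70.9 CPM in wt libraries. Both dKO values were the higher, by 0.40 on the log2 scale (SE 0.16, adjusted p = 0.888 by edgeR). Its paralogue Utrn, utrophin, is the most abundant gene of the list and had 317 and 302 CPM in dKO libraries, against 294 and 326 CPM in wt libraries. The genotypes of Utrn overlapped, and the 95% interval of its log2 difference ran from -0.30 to 0.29. Lpp, a focal-adhesion protein, also overlapped, with 81.0 and 98.8 CPM in dKO libraries, against 86.2 and 81.5 CPM in wt libraries.

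Cytoskeletal genes held the most abundant members. Dst and Macf1 encode the spectraplakins, giant linkers between actin and microtubules. Dst had 986 and 1038 CPM in dKO libraries, against 727 and 1048 CPM in wt libraries. Macf1 had 893 and 1073 CPM in dKO libraries, against 675 and 1063 CPM in wt libraries. In both, wt replicate 1 was the low library and wt replicate 2 was level with dKO replicate 2, and without wt replicate 1 their log2 differences of 0.19 and 0.18 were -0.06 and -0.12. Of the 23 genes in this list, 0 passed the test, 16 were positive and 7 negative, with a median of 0.18, or 0.01 without wt replicate 1 and 0.08 without dKO replicate 2.

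Signalling enzymes divided in both directions. Of 22 genes, 0 passed the test, and 15 were positive and 7 negative. The genotypes did not overlap in 7 that were higher in dKO, or 31.8% (17.2% of all genes tested and 28.0% of the long genes). They did not overlap in 5 that were lower, or 22.7% (16.4% of all genes tested and 9.96% of the long genes). The median was 0.28, or 0.09 without dKO replicate 2 and 0.12 without wt replicate 1. Mast4 had the largest positive difference, and Itpr2 and Fgfr2 had the largest negative ones. The abundant members did not separate the genotypes: Itpr1, the main neuronal inositol trisphosphate receptor, had 97.3 and 77.5 CPM in dKO libraries, against 77.2 and 88.9 CPM in wt libraries. Lrba, a BEACH-domain trafficking protein, had 88.9 and 107 CPM in dKO libraries, against 68.9 and 95.7 CPM in wt libraries.

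Transcription factors and chromatin regulators leaned the same way with more weight on single libraries. Of 30 genes, 0 passed the test, 21 were positive and 9 negative, with a median of 0.18. Without dKO replicate 2 that median was 0.01 and 15 were positive, without wt replicate 1 it was 0.08, and without wt replicate 2 it was 0.37. Rere, an atrophin-type corepressor, had 103 and 121 CPM in dKO libraries, against 90.8 and 107 CPM in wt libraries. Foxp1, a forkhead factor with an isoform known from pluripotent cells, had 117 and 67.8 CPM in dKO libraries, against 86.6 and 34.4 CPM in wt libraries. In Foxp1 replicate 1 was the higher library in each genotype, and the difference of 0.62 had a standard error of 0.47.

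The remaining lists lay nearer zero, and 0 of their genes passed the test. The 15 trafficking, ubiquitin and proteostasis genes had a median of 0.09, or 0.21 without wt replicate 1. Their genotypes did not overlap in 7, or 46.7%, all higher in dKO (17.2% of all genes tested and 28.0% of the long genes). Exoc4, a subunit of the exocyst tethering complex, had 180 and 198 CPM in dKO libraries, against 176 and 178 CPM in wt libraries. Vps13b, a lipid-transfer protein of the Golgi, had 158 and 151 CPM in dKO libraries, against 111 and 133 CPM in wt libraries (0.34, SE 0.13). The 15 matrix, growth factor and glycan genes had a median of 0.06 that was -0.17 without dKO replicate 2 and 0.31 without dKO replicate 1. Among them, Gpc3, a glypican of the cell surface, overlapped at 70.6 and 92.1 CPM in dKO libraries, against 74.7 and 91.7 CPM in wt libraries. The list of 32 metabolic and transport genes also holds ion channels such as Cacna1c, the glutamate receptor Grik4 and the signalling adaptor Dab1. It divided evenly, 16 positive and 16 negative, with a median of 0.02 that was -0.05 without dKO replicate 2. The most abundant of these were Oxr1, an oxidation-resistance protein, at 82.4 and 81.8 CPM in dKO libraries, against 79.2 and 78.7 CPM in wt libraries, and Vwa8, a mitochondrial ATPase, at 66.0 and 60.2 CPM in dKO libraries, against 68.3 and 64.7 CPM in wt libraries. Of the 5 RNA-binding or RNA-processing genes, 4 were positive, with a median of 0.16, or 0.08 without dKO replicate 2, 0.07 without wt replicate 1 and 0.08 without wt replicate 2. Msi2, a Musashi RNA-binding protein, had 144 and 118 CPM in dKO libraries, against 113 and 88.6 CPM in wt libraries, and Fto, an RNA demethylase, had 64.4 and 59.2 CPM in dKO libraries, against 67.3 and 73.5 CPM in wt libraries. The 91 genes in no list had a median of 0.07.

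**Figure D4:**
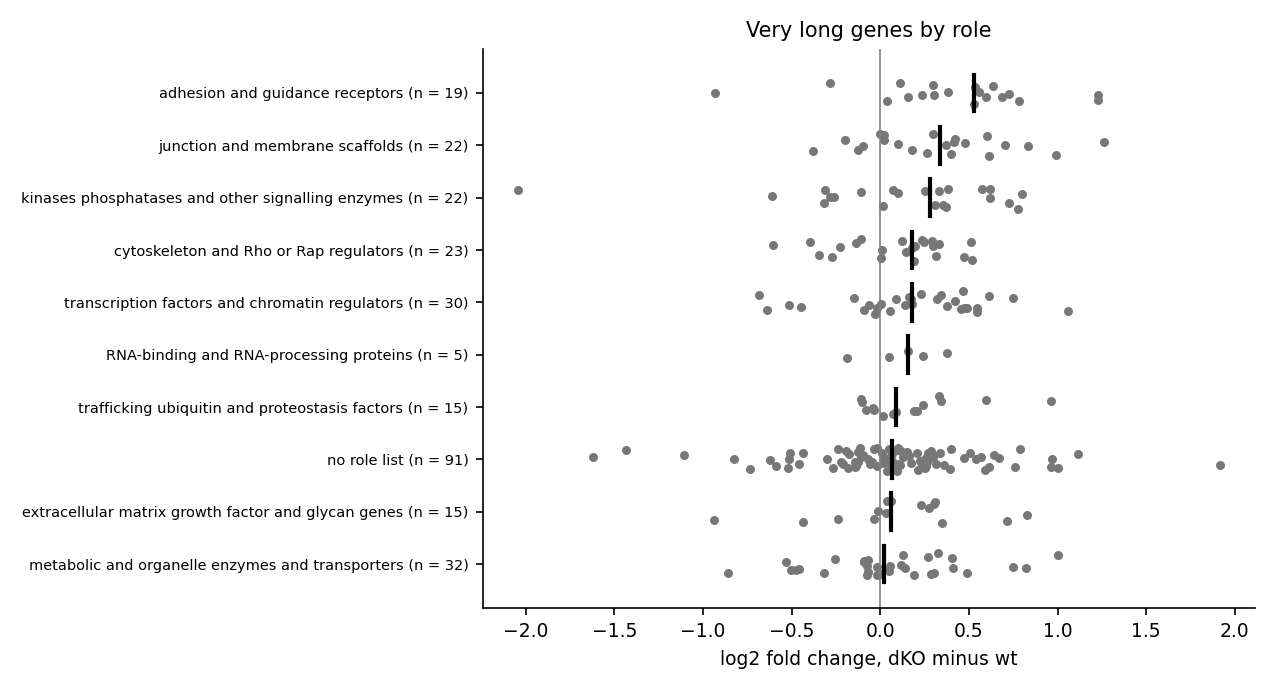
Log2 fold change, dKO minus wt, of each very long gene (points) by role list, with the median as a vertical bar; genes in 2 lists appear in both. The medians run from 0.53 for adhesion and guidance receptors to 0.02 for metabolic and organelle enzymes and transporters, a list that includes ion channels. Of all these genes, 0 passed the adjusted threshold.

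Levels per kb of annotated exon put a different set of genes at the top. Gpc3 averaged 30.6 CPM per kb, Macf1 29.5, Dst 23.1, Snd1 21.4 and Pola1 18.9 CPM per kb, and the median of the long genes was 1.03 CPM per kb. On this scale Gpc3 had 26.2 and 34.2 CPM per kb in dKO libraries, against 27.8 and 34.1 CPM per kb in wt libraries. Pola1, the catalytic subunit of DNA polymerase alpha, had 175 and 196 CPM in dKO libraries, against 147 and 152 CPM in wt libraries, with both dKO values the higher (log2 difference 0.31, SE 0.12, adjusted p = 0.868 by edgeR). Snd1, a Tudor-domain nuclease, had 210 and 192 CPM in dKO libraries, against 210 and 225 CPM in wt libraries (-0.11, SE 0.12). Pam, an enzyme that amidates peptide hormones and the shortest gene included, had 12.7 and 16.2 CPM in dKO libraries, against 10.9 and 15.4 CPM in wt libraries. Among genes chosen after their values were seen, Sbf2, a myotubularin-family protein, had 147 and 157 CPM in dKO libraries, against 98.5 and 96.9 CPM in wt libraries, and Etl4 had 274 and 260 CPM in dKO libraries, against 171 and 183 CPM in wt libraries. In both, the replicates of a genotype were much closer to each other than to the other genotype, at log2 differences of 0.64 and 0.59 (SE 0.11 each, adjusted p = 0.338 and 0.394 by edgeR).

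The machinery that long-gene transcription is known to need showed no called difference. Of 52 topoisomerase, polymerase and elongation genes, 51 were tested, and 0 passed the adjusted threshold. At an unadjusted p under 0.05, 2 were higher in dKO (2.87% of all genes tested) and 1 was lower in dKO (2.71% of all genes tested). These were Aff4 and Polr2a, higher in dKO, and Tcea3, lower in dKO. The median log2 difference of the list was 0.04. Top1, the type I topoisomerase, had 215 and 146 CPM in dKO libraries, against 185 and 182 CPM in wt libraries. Top2b, the type II topoisomerase also present in non-dividing cells, had 68.5 and 62.9 CPM in dKO libraries, against 70.2 and 54.7 CPM in wt libraries. The genotypes overlapped in both. Aff4 had 492 and 487 CPM in dKO libraries, against 383 and 397 CPM in wt libraries (0.33, SE 0.11). Polr2a, the largest subunit of RNA polymerase II, had 742 and 714 CPM in dKO libraries, against 586 and 603 CPM in wt libraries (0.29, SE 0.11). Tcea3, an elongation factor of the TFIIS family, had 50.2 and 46.1 CPM in dKO libraries, against 64.4 and 72.2 CPM in wt libraries (-0.51, SE 0.13).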

How the data were processed

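RNA-seq was measured in 4 libraries, 2 dKO and 2 wt. The authors deposited read counts per Ensembl gene. The submitters' processing notes name TopHat2 2.0.6, TopHat and HTSeq without roles, and per the labels' protocols RNA was extracted with Trizol for TruSeq RNA libraries. The sources used here do not give the genome build, annotation or strand setting. Symbols, biotypes, exons and transcripts came from GENCODE M21, which matched 32919 of 37991 genes. All coordinates of genes are those of the table.

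In edgeR 4.0.16 (R 4.3.3), filterByExpr left 14027 genes and TMM factors set the library scale. Genotype was tested by quasi-likelihood, with Benjamini-Hochberg adjustment and a threshold of 0.05. The procedure was tested on simulated data. There most changes of 1.5-fold and 2-fold were not called, and most of 4-fold and 8-fold were called. CPM values of single libraries are TMM-scaled. With 2 against 2 libraries, no exact permutation test can go below p = 0.333, so none is given. DESeq2 1.42.0, other scalings, other thresholds, a replicate term and leaving out each library were the alternatives.

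The members, role lists and marker lists were chosen with earlier results of these data known. Named genes are those past the threshold (none), the 6 largest differences in each direction among members of at least 5 CPM with non-overlapping genotypes, the 5 highest per kb of exon, the 3 longest, the 2 most abundant of each role list and those at the thresholds. A gene that this rule names is not reported here. Further genes are marked where they appear.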

Additional observations from a re-analysis of the deposited data

How the results depend on the processing

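The number of genes called across the table was 12, and it was 80 without the low-count filter, 92 with DESeq2 on unfiltered genes, and 18 to 27 when 1 library was left out. Long genes called were 0, and they were 2 without the filter (Mid1 and Tenm4), 3 with DESeq2, and 0 to 2 when 1 library was left out. With a replicate block, 1299 genes were called, 641 higher in dKO (4.57%) and 658 lower in dKO (4.69%). Long genes called were then 45, 35 higher in dKO and 10 lower in dKO. Of the 35 named genes, 14 were called with the block and 21 were not. Called higher in dKO were Tenm4, Mid1, Mast4, Bnc2, Gphn, Foxp1, Ptprk, Dmd, Pola1, Vps13b and Msi2, and lower were Pid1, Fgfr2 and Wwox. Hydin, Ryr2 and Hecw2 were also called, lower in dKO. Standard errors with the block were 0.21 for Hydin, 0.14 for Ryr2, 0.17 for Hecw2 and 0.12 for Foxp1. The replicate number is a number in the labels with no stated batch, and across the long genes the replicate 2 minus replicate 1 differences of dKO and wt had a Spearman's rho of 0.63. The median of the long genes was 0.14 with the block as well, 0.24 at a length of at least 500 kb, and 0.06 to 0.18 when 1 library was left out. The share of long genes with non-overlapping genotypes was 40.2% to 53.5% higher in dKO and 17.0% to 28.0% lower in dKO when 1 library was left out, against 32.0% to 34.7% higher and 31.3% to 35.8% lower over all genes tested, and 4.94% were lower in dKO at a length of at least 500 kb.

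Among 35 named genes and 315 values under the alternatives, 281 kept their direction and side of the threshold, 21 passed the threshold and 13 changed sign, over 8 genes that were called in neither setting. Utrn was at 0.0023 without the filter. When 1 library was left out, the lowest and highest log2 differences were -0.081 and 0.074 for Utrn, -0.095 and 0.35 for Ptprg, -0.056 and 0.48 for Dst, -0.093 and 0.41 for Pam, -0.12 and 0.54 for Macf1, -0.096 and 0.23 for Itpr1, -0.044 and 0.24 for Lpp, and -0.23 and 0.15 for Gpc3. The causes were not tested. Requiring 300 kb in GENCODE M21 too, or a coding transcript of that span, were alternatives chosen after seeing the data, and the median was 0.14 and 0.16. With 2 libraries a genotype, standard errors of the long genes ran from 0.11 to 1.11 on the log2 scale, with a median of 0.30.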
